A study of Mus musculus with 4 samples.

Results

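The sperm flagellum and axoneme genes described here are those named Cfap, Dnah, Rsph, Tekt or Odf with a number and at most 1 letter, or with a number, an l and a number. The rule read only the gene symbols of the deposited matrices, and it found 67 of 32285 genes, namely 31 Cfap, 15 Dnah, 8 Rsph, 5 Tekt and 8 Odf genes. The genes were measured by droplet scRNA-seq of unsorted cells in 2 libraries of testicular organoids (TOs) and 2 libraries of mouse testis. The TOs had been rebuilt from dissociated testis cells of neonatal ICR mouse pups, gathered into spheroids, embedded in a basement membrane extract and grown at an air–liquid interface, and the testes were dissociated directly. Per the methods, the TO medium held serum replacement, follicle-stimulating hormone, testosterone and antioxidants. The testes were not cultured, so these additions cannot be told apart from other differences between the groups. Neither group carried a transgene, a deletion or a drug treatment that the labels name. The series design gives an age of 28 days for both TOs and testes, and the methods give the same day for the TOs, whereas the protocol in the labels gives day 21. In the paper the day of a TO counts time in culture, whereas that of a testis is the age of the mouse. The methods describe the TOs as independent batches and the testes as biological replicates, and the strain of the testes and the number of animals in a library are not given in the sources used here.

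The 4 libraries held 11826 to 14643 barcodes and 74988295 to 119966959 UMIs, and 9837 to 10652 cells a library were kept. Pairs of libraries shared 30 to 55 barcodes, at most 0.44% of the smaller library. Of the kept cells, 1119 and 909 were germ cells in TO replicates 1 and 2, and 7951 and 8404 in the 2 testis libraries, and values are given in this order throughout. Germ cells were clustered without the flagellum genes, and each cluster was named from markers, so "pachytene" below stands for pachytene-like cells and so on. The stages ran from undifferentiated and differentiating spermatogonia through leptotene and zygotene, pachytene, and diplotene and dividing spermatocytes to round and elongating spermatids. The TOs gave 94 and 56 pachytene, 25 and 24 diplotene and 12 and 17 round spermatid barcodes, against 2003 and 1542, 1156 and 1203, and 3229 and 2086 in the testes. A further 41, 32, 432 and 526 germ cells lay in clusters left unnamed and entered no stage in the main sums. Among them, a cluster of 13, 15, 322 and 465 cells scored best on the diplotene markers. No elongating spermatid was found among the TO germ cells, which allows a share of up to 0.268% and 0.33% (3 cells of each total, counting error only), and the testes held 191 and 2453.

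The names of the later TO stages were weaker than those of the testes. When each germ cell was matched by correlation to the mean expression of the testis stages, with the flagellum genes left out, 71 of the 94 and 32 of the 56 TO pachytene cells matched leptotene and zygotene cells best, and 16 and 19 matched pachytene cells. In the testes 1880 of 2003 and 1356 of 1542 matched pachytene cells. Of the TO cells named round spermatids, 8 of 12 and 10 of 17 matched diplotene cells best, and 3 and 5 matched round spermatids. Results on pachytene cells are therefore also given for stages set by correlation.

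A motile flagellum is built around the axoneme, a ring of doublet microtubules around a central pair. Dynein arms, whose motor subunits are the axonemal heavy chains of the Dnah family, slide the doublets against each other, and radial spokes, which hold the Rsph proteins, pass signals from the central pair to the arms. Tektins form filaments inside the doublets, and many cilia and flagella associated proteins (Cfap) line the doublets, brace the dyneins or serve the central pair. The outer dense fibres, named in the Odf symbols, are stiff cables that surround the axoneme in the sperm tail. In the mouse testis the transcripts of many axoneme proteins are made in spermatocytes, before the tail itself grows in spermatids.

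Promoters are shown first, because the letters of 1 site stood in promoters of all 5 families. RefSeq promoter windows of GRCm38, from 250 bases before to 50 bases after a start, were given for 54 of the 67 genes. The letters GTTGCC, on either strand, are part of the site bound by RFX factors, which switch on cilium genes. They stood in a window of 19 of the 54 genes (35.2%), against 3821 of the 27025 genes of the whole table (14.1%). By family, 9 of 24 Cfap, 4 of 14 Dnah, 1 of 5 Rsph, 3 of 5 Tekt and 2 of 6 Odf genes held them, and the near-identical Dnah7a, Dnah7b and Dnah7c make up 3 of the 4 Dnah genes. The palindromic cAMP response element TGACGTCA, which does not overlap GTTGCC, stood in 1 of 54 (1.85%), against 2.03% of all genes. A match of letters describes the window only and was not tested as a binding site. The 200 bases just before the RefSeq start are printed for 3 genes that differ in when they were first detected at a high level and in how the TOs compare, on the gene's own strand, with GTTGCC or its reverse complement in capitals.

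Tekt1: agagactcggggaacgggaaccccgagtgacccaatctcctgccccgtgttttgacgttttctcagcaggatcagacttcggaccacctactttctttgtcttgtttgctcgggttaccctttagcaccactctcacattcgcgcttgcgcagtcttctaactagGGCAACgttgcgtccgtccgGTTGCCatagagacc
Tekt2: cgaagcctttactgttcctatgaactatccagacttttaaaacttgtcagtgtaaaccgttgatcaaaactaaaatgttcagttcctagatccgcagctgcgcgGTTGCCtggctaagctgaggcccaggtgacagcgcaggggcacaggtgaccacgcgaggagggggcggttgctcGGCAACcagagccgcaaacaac
Odf3l1: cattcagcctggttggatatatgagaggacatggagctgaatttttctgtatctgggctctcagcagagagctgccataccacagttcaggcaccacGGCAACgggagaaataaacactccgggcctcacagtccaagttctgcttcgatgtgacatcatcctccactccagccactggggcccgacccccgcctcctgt

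Tekt1 and Tekt2 encode tektins, and Odf3l1 encodes a relative of the sperm tail protein Odf3. The Tekt1 window (chr11:72361883-72362082, minus strand) has the letters beginning 35 and 15 bases before the start. In the Tekt2 window (chr4:126325689-126325888, minus strand) they begin 96 and 22 bases before it, and in the Odf3l1 window (chr9:56851964-56852163, minus strand, the downstream of its RefSeq starts) 103 bases before it. None of the 3 windows holds an annotated exon base in GENCODE vM21. The Tekt1 and Odf3l1 windows lie within the annotated span of their own genes there, and the Tekt2 window lies just outside that of Tekt2. Tekt1 reached 50% of its highest level at pachytene in both testes, Tekt2 at diplotene in both, and Odf3l1 at diplotene in testis replicate 1 and in round spermatids in testis replicate 2.

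Summed over all 67 genes, the level was several times as high at pachytene as before it in every library. Levels are given as CPM, the UMIs of a gene or family per 1000000 UMIs of all cells of 1 stage and library. The kit reads the 3′ ends of transcripts, and CPM was not divided by transcript length. Whether reads in introns were counted is not given in the sources used here. An effect of gene length on the levels was not tested. In undifferentiated spermatogonia the sum was 1071 and 911 CPM in the TOs and 3032 and 2495 CPM in the testes. In leptotene and zygotene cells it was 1236 and 1100 CPM in the TOs and 4738 and 5310 CPM in the testes. At pachytene it reached 14099 and 14663 CPM in the TOs and 15466 and 17026 CPM in the testes. It stayed at that height at diplotene (13573, 17220, 15200 and 16374 CPM) and in round spermatids (16642, 15880, 13371 and 13038 CPM), and in elongating spermatids of the testes it was 8570 and 8896 CPM. Both TOs lay below both testes at every stage up to pachytene, where the gap was smaller, the groups overlapped at diplotene, and both TOs lay above both testes in round spermatids.

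Part of the early testis level was also found in somatic cells. The sum was 2551 and 1670 CPM in Leydig cells of the testes and 4564 and 3440 CPM in testis macrophages, but 595 and 525, and 340 and 288 CPM, in those of the TOs. A somatic barcode other than a Sertoli cell held 14.8 and 14.9 UMIs of the 67 genes in the testes and 3.75 and 4.22 in the TOs. Markers of elongating spermatids moved in the same way. All 7 had UMIs in testis leptotene and zygotene cells, at a summed 3086 and 4246 CPM, against 2 of 7 in each TO, at 3.87 and 3.27 CPM. After the per-barcode level of the somatic cells of the same library had been subtracted, the sum in undifferentiated spermatogonia was 741 and 620 CPM in the TOs and 779 and 738 CPM in the testes. In leptotene and zygotene cells it was 802 and 714 CPM against 1037 and 2649 CPM, and at pachytene 13768 and 14528 CPM against 12238 and 15196 CPM. The main sums and tests below are therefore also given after this subtraction, which was made for the genes of the flagellum alone. Some of these genes were also found in TO somatic cells, such as Dnah2 with 1761 and 1334 UMIs in TO Leydig cells. The subtraction does not tell transcripts made in somatic cells from those of other origin.

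**Figure D1:**
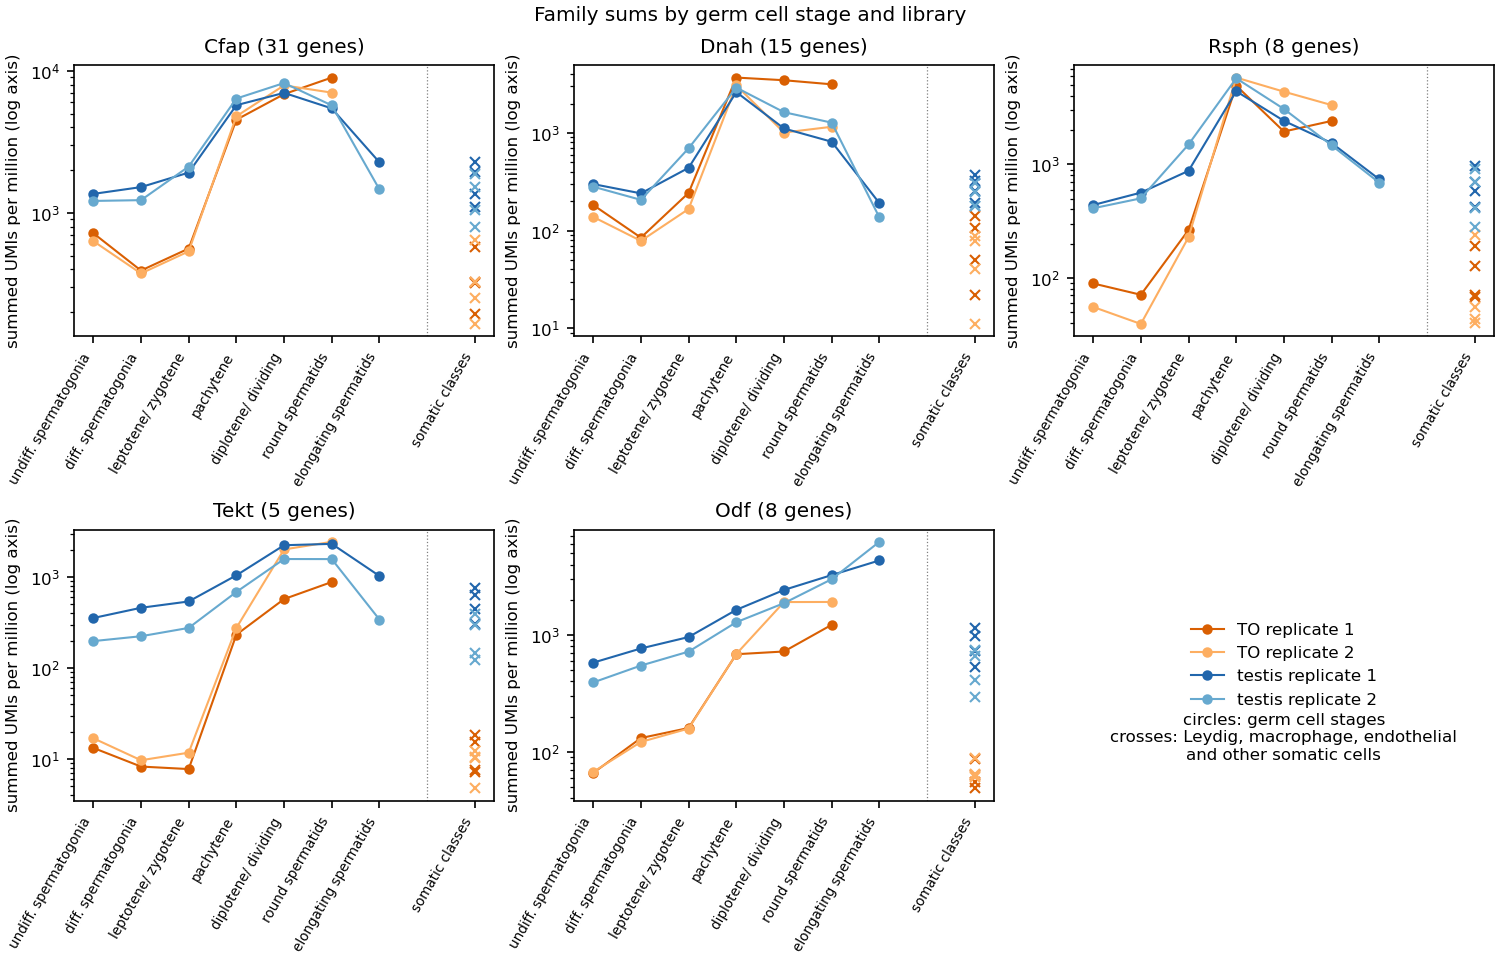
Summed CPM (log axis) of the 5 families by germ stage (circles) and somatic class (crosses), with 1 line or colour for each of the 4 libraries. At pachytene the 4 libraries lie close together, at 14099 to 17026 CPM over all families, whereas before pachytene and in somatic classes both testes lie above both TOs.

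The families differed in their part of the pachytene sum. Radial spoke genes took the largest part of the sum there in TO replicates 1 and 2, at 4956 and 5842 CPM, with 4425 and 5755 CPM in the testes, and most of it came from Rsph1. Cfap genes summed to 4526 and 4788 CPM in the TOs and 5727 and 6381 CPM in the testes. Heavy chain genes summed to 3700 and 3071 CPM against 2628 and 2918 CPM, the TOs lying above the testes. Tektin genes were low, at 233 and 276 CPM in the TOs and 1047 and 687 CPM in the testes. Odf genes gave 684 and 687 CPM against 1639 and 1285 CPM, mostly from Odf2. Tektin and Odf sums thus lay lower in both TOs than in both testes at pachytene, and the Rsph sums overlapped. With the somatic level subtracted, the tektin sums were 226 and 274 against 617 and 533 CPM and the Odf sums 650 and 668 against 973 and 957 CPM, still lower in both TOs, but the Cfap sums overlapped, at 4340, 4705, 4370 and 5545 CPM.

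Within a library, the pachytene sum of all 67 genes was 11.4 and 13.3 times the leptotene and zygotene sum in the TOs and 3.26 and 3.21 times in the testes. For the tektins it was 30.1 and 23.6 times in the TOs and 1.94 and 2.49 times in the testes. From leptotene and zygotene to pachytene, 58, 58, 58 and 57 of the 67 genes went up. By more than 5-fold it was 43 and 45 genes in the TOs and 13 and 12 in the testes. The gap between the groups was smaller once the somatic level had been subtracted. The ratio over all 67 genes was then 17.2 and 20.3 in the TOs and 11.8 and 5.74 in the testes, and 44 and 46 genes went up by more than 5-fold in the TOs and 47 and 40 in the testes. For the tektins it was 12.2 and 10.3 in the testes and 59.2 in TO replicate 2, while TO replicate 1 had no tektin UMI left in leptotene and zygotene cells.

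In round spermatids the families had a different balance. The Cfap sum was 8963 and 7023 CPM in the TOs and 5439 and 5712 CPM in the testes, and the Rsph sum was 2419 and 3339 against 1545 and 1473 CPM. The Odf sum ran the other way, at 1220 and 1915 against 3252 and 2998 CPM. The Dnah sum (3156, 1158, 814 and 1277 CPM) and the Tekt sum (884, 2445, 2322 and 1579 CPM) overlapped between the groups. In elongating spermatids of the testes Odf genes led, with 4340 and 6265 CPM, ahead of Cfap with 2270 and 1463 CPM. The Dnah sum was down to 191 and 137 CPM there. Over the 5 families and 6 stages that both groups had, both TOs lay below both testes in 19 of 30 sums and above in 3, or 15 and 6 with the somatic level subtracted. In round spermatids the Cfap and Rsph sums stayed higher and the Odf sums lower in both TOs after the subtraction, and the Dnah sum was also higher, at 3030 and 1135 against 684 and 1094 CPM. Most TO cells named round spermatids, 8 of 12 and 10 of 17, matched diplotene cells best. Testis diplotene sums without subtraction were 6995 and 8203 CPM for Cfap, 2423 and 3085 for Rsph and 2426 and 1870 for Odf. The part of stage mixing in these differences was not tested.

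**Figure D2:**
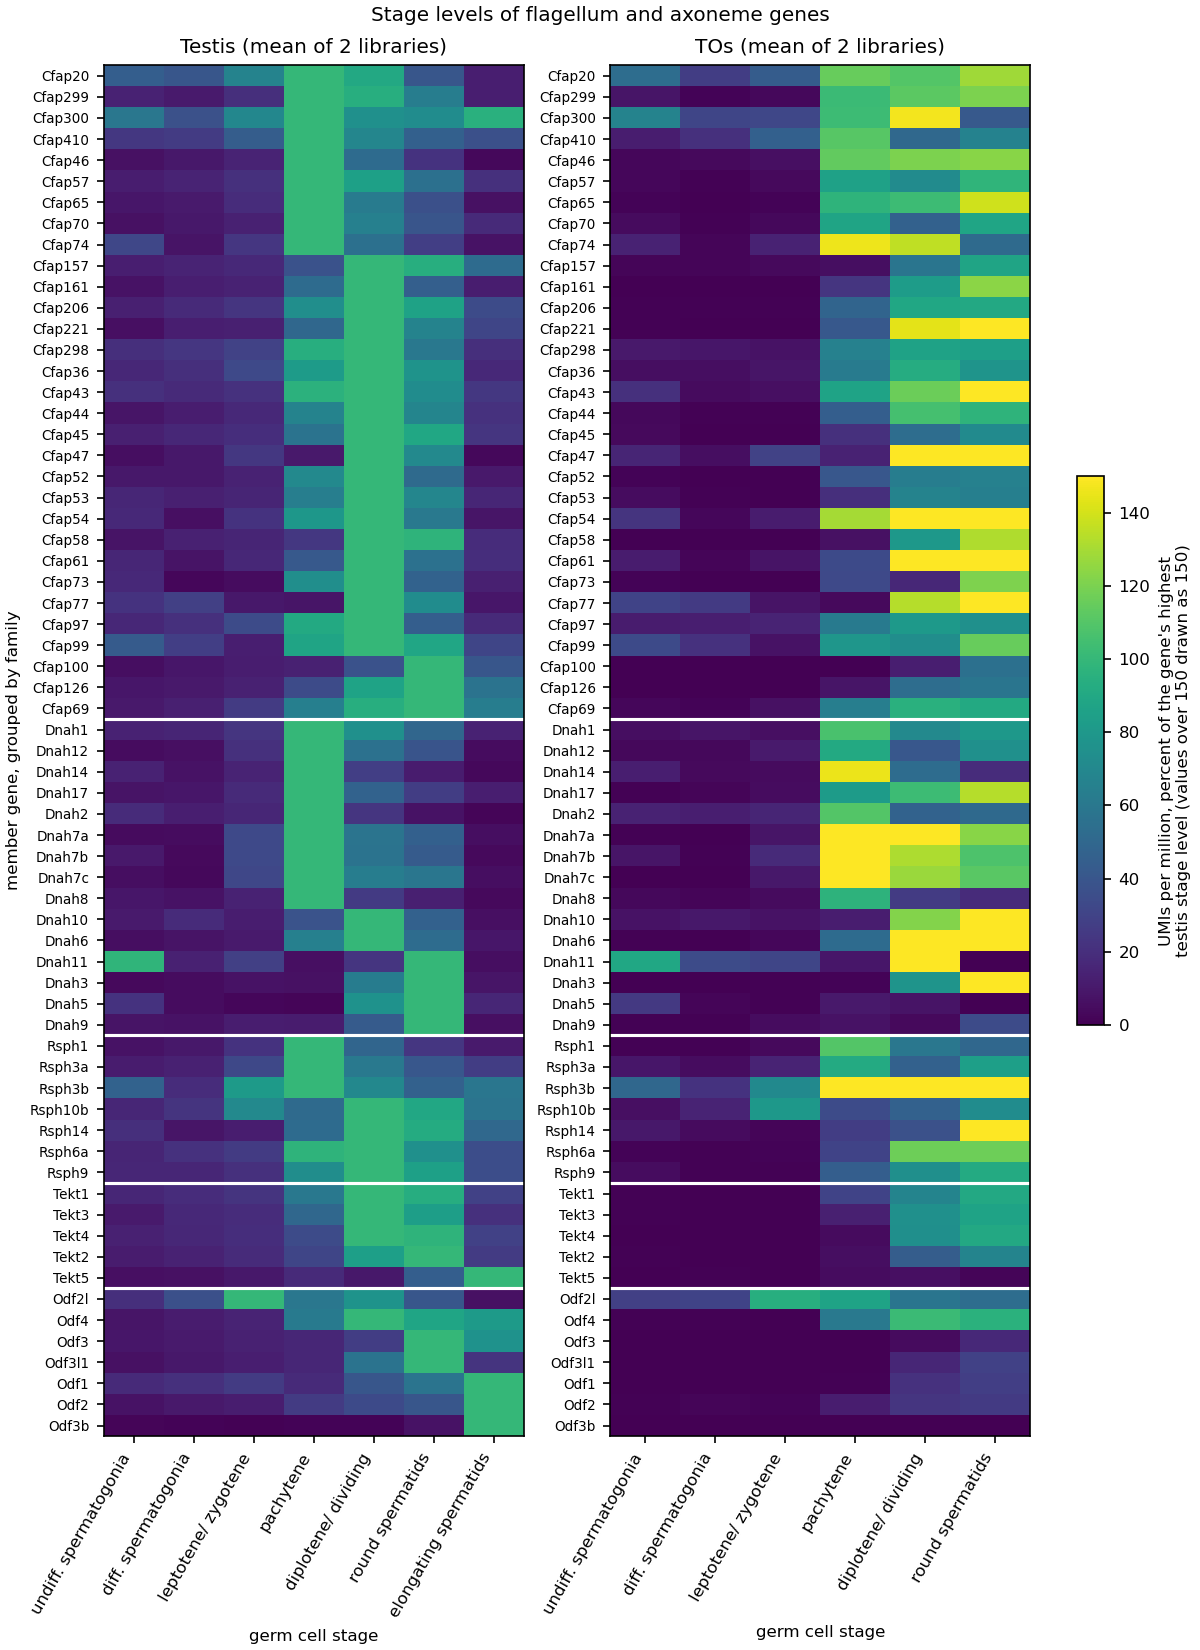
Heat map of 65 genes (rows, by family and by highest testis stage) by germ stage (columns) in testis and TO (means of 2 libraries), as percent of the gene's highest stage level in the testes, with values over 150 drawn as 150. Most genes brighten at pachytene or diplotene in both panels, and most Odf and Tekt rows brighten later than most Rsph and Dnah rows.

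The order of onset was described in the testes, where every stage had cells. Onset was the first stage at which a gene reached 50% of its highest stage level in a library, for genes with at least 50 UMIs and stages with at least 10 cells. Of the 67 genes, 65 had an onset in both testes, 53 had the same onset and 51 the same highest stage. Pachytene was the onset of 40 and 37 genes and diplotene of 15 and 15. A further 2 and 3 genes had their onset in undifferentiated spermatogonia, 4 and 2 in leptotene and zygotene cells, 2 and 5 in round and 2 and 3 in elongating spermatids. The stage of onset depended on the processing. With stages set by correlation, 25 and 19 genes had it in leptotene and zygotene cells and 23 and 19 at pachytene, and with upper limits of 5000 genes and 20000 UMIs per cell it was 21 and 10 in leptotene and zygotene cells. At 25% of the highest level, 13 and 6 genes had their onset in undifferentiated spermatogonia and 4 and 12 in leptotene and zygotene cells. The counts at pachytene were 39 and 36 with the somatic level subtracted. With stages numbered from 1 to 7, the mean onset in testis replicate 1 was 3.71 for Rsph, 4.07 for Dnah, 4.10 for Cfap, 5.00 for Odf and 5.20 for Tekt genes. In testis replicate 2 it was 3.86, 4.13, 4.19, 5.71 and 4.80. Tektin and Odf genes thus came last, and Odf and Tekt changed places between the replicates. Tektin and Odf genes both came later than Cfap, Dnah and Rsph in both testes under each of 6 ways of processing (12 of 12). The order among Rsph, Dnah and Cfap depended on the processing. At 25% of the highest level Cfap genes (3.19 and 3.52) came before Dnah genes (3.67 and 3.80). With the somatic level subtracted, Dnah genes (3.80 and 4.13) came before Rsph genes (3.86 and 4.14). These are means over 5 to 31 genes of a family, with no test, since genes are not replicates.

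**Figure D3:**
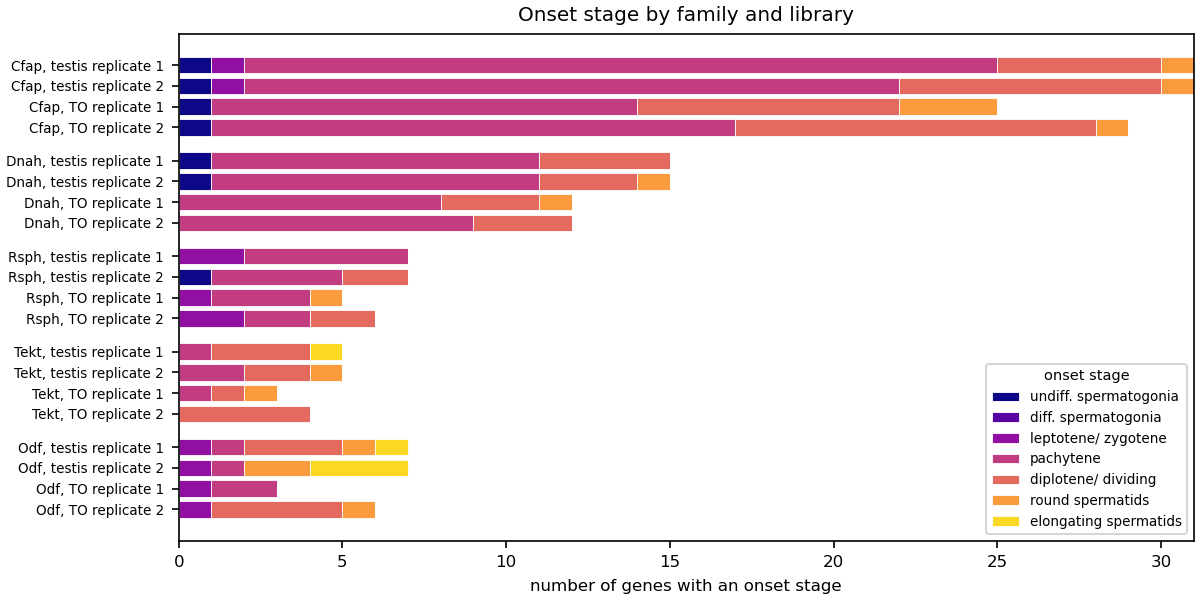
Stacked bars of the number of genes with their onset at each germ stage, by family and library. Pachytene holds the largest part in the Cfap, Dnah and Rsph bars of the testes, and diplotene or later stages in most Tekt and Odf bars.

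Among the radial spoke genes, Rsph1, a spoke head subunit, had its onset at pachytene in every library. Its level was 39.1, 22.2, 336 and 332 CPM in undifferentiated spermatogonia, 196, 156, 684 and 1370 CPM in leptotene and zygotene cells and 4637, 5565, 3930 and 5379 CPM at pachytene. It was 1767 and 2875 CPM in TO round spermatids and 1079 and 1145 CPM in those of the testes. At pachytene Rsph1 alone exceeded the sum of the whole Dnah family in every library. Rsph3a, a spoke stalk subunit, Rsph6a, a spoke head subunit of sperm, and Rsph9, of the spoke head, also had their onset at pachytene in both testes. Rsph3a and Rsph3b are near-identical and their split is uncertain. Together they gave 149, 124, 144 and 115 CPM at pachytene. Rsph14 differed between the testes (pachytene and diplotene), as did Rsph10b (leptotene and zygotene, and diplotene), whose reads overlap Pms2 on the same strand. Rsph4a, the spoke head subunit of other motile cilia, had too few germ cell UMIs for an onset, and 189 and 89 UMIs in TO Leydig cells against 14 and 4 in those of the testes.

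Dynein heavy chains followed the same time course. Dnah8, an outer-arm chain of sperm, had its onset at pachytene, with 56.1, 33.8, 122 and 181 CPM in leptotene and zygotene cells and 1093, 944, 980 and 1121 CPM at pachytene. It was down to 274, 112, 100 and 173 CPM in round spermatids. Dnah14 had 691, 699, 415 and 540 CPM at pachytene, and the inner-arm chains Dnah2 and Dnah12 had the same onset. The near-identical copies Dnah7a, Dnah7b and Dnah7c, of the inner arm, gave 1274, 982, 606 and 669 CPM together at pachytene, both TOs lying above both testes. Dnah3 and Dnah10, also inner-arm chains, had their onset at diplotene in both testes. Dnah3 reached 631, 218, 217 and 274 CPM in round spermatids, and its reads cannot be separated from those of Lyrm1 on the other strand, since strand handling is not given in the sources used here.

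Of the Cfap genes with the highest levels, Cfap36, Cfap206, Cfap298, Cfap299, Cfap45, Cfap53 and Cfap97 had their onset at pachytene in both testes and Cfap126 at diplotene. Cfap36, a partner of a ciliary GTPase, had 641, 869, 877 and 1123 CPM at pachytene. Cfap298, which serves dynein assembly, had 505, 617, 660 and 936 CPM there, and Cfap206, a radial spoke base protein, 422, 439, 656 and 659 CPM. The doublet lumen proteins Cfap45 and Cfap53 were lower in both TOs at that stage, at 92.8 and 113 against 317 and 251 CPM for Cfap45, and at 78.6 and 83.1 against 256 and 263 CPM for Cfap53. In round spermatids neither gene separated the groups as clearly, with 295, 419, 496 and 392 CPM for Cfap45 and 210, 310, 292 and 264 CPM for Cfap53.

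Tektins came on later. Tekt1 gave 150, 166, 326 and 305 CPM at pachytene, 98.4, 614, 574 and 477 CPM at diplotene and 210, 740, 551 and 429 CPM in round spermatids. Tekt2 had 26.5, 28.1, 216 and 103 CPM at pachytene and 231, 453, 592 and 422 CPM in round spermatids. Tekt4 likewise went from 23.7, 32.8, 325 and 147 CPM at pachytene to 337, 903, 848 and 487 CPM in round spermatids. At pachytene both TOs lay below both testes for Tekt1, Tekt2 and Tekt4, and in round spermatids TO replicate 1 was low for all 3 and TO replicate 2 was the highest library for Tekt1 and Tekt4. Tekt3 had its onset at diplotene and pachytene in the testes. Tekt5, a tektin of the sperm tail, was last, with its onset in elongating or round spermatids and 234 and 69.0 CPM in elongating cells.

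Odf genes had onsets from leptotene and zygotene cells to elongating spermatids in the testes. Odf2l, a centriole protein, had its onset in leptotene and zygotene cells in both testes, with 83.7, 92.7, 64.5 and 123 CPM there. Odf2, a main protein of the outer dense fibres that is also found at centrioles, went from 75.0, 63.3, 575 and 449 CPM in leptotene and zygotene cells to 736, 1399, 1718 and 1650 CPM in round and 2905 and 5435 CPM in elongating spermatids. Odf1, the other main fibre protein, stayed low, at 42.1, 86.0, 138 and 129 CPM in round and 185 and 278 CPM in elongating spermatids. Odf3 had 126, 141, 819 and 732 CPM in round spermatids, its onset in both testes, and Odf3b had its onset in elongating spermatids (72.8 and 117 CPM). Odf4, a tail membrane protein, had its onset at pachytene in both testes and TO replicate 1 and at diplotene in TO replicate 2, with 122, 70.8, 111 and 85.2 CPM at pachytene. Odf3l2 had 1 UMI in the germ cells of the testes and none in those of the TOs.

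In the TOs, 48 and 57 genes had enough UMIs for an onset, in a range that ends at round spermatids. Onset at pachytene was found for 27 and 27 of them and at diplotene for 12 and 24. In TO replicate 2, which had more UMIs, the mean onset was 4.00 for Rsph, 4.25 for Dnah, 4.34 for Cfap, 4.83 for Odf and 5.00 for Tekt genes, so the tektin and Odf genes again came last. In TO replicate 1 only 3 Odf genes had an onset, at a mean of 3.67. Rsph1 and Dnah8 had their onset at pachytene in both TOs. Tekt2 had it in round spermatids and at diplotene, and Tekt4 at diplotene in both.

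Levels in the TOs came closest to the testes for genes whose highest level lay early. The 19 genes highest at pachytene in both testes, Rsph1, Dnah8 and the Dnah7 copies among them, had a median of 110% of the testis level in TO pachytene cells (82.3 to 186%). The 23 genes highest at diplotene, with Tekt1, Tekt3 and Cfap45, had a median of 86.6% in TO diplotene cells (37.3 to 305%) and of 61.1% at pachytene. The 6 genes highest in round spermatids, with Tekt2, Cfap126 and Odf3l1, had a median of 56.8% in TO round spermatids (28.8 to 173%) and 20.1% at pachytene. For the 3 genes highest in elongating spermatids, Odf1, Odf2 and Odf3b, the median in round spermatids was 48.0%. With the somatic level subtracted, the medians at the stage of the highest level were 118%, 91.0% and 61.6%, and 64.3% for the elongating group in round spermatids. At pachytene they were 78.9% for the diplotene and 32.4% for the round spermatid group. The groups were set by the testis levels and were mostly read at different stages, so these shares are a description. Most TO cells named round spermatids matched diplotene cells best.

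TO and testis were compared by edgeR's quasi-likelihood test on sums per library and stage, with p adjusted over all genes tested in a stage by the Benjamini-Hochberg method. A call needed an adjusted p under 0.01 together with a change of more than 1 on the log2 scale in either direction. Fold changes were scaled by TMM, so they can differ from ratios of CPM. At pachytene 62 of the 67 genes passed the filter on low counts, and 12 of the 62 were lower and none higher in the TOs, while 6.28% of all 13727 genes tested were lower and 0.736% higher. The median log2 fold change was −0.64 over the 62 genes and −0.06 over all genes. By family, 3 of 5 tektins, 3 of 6 Odf, 4 of 31 Cfap, 1 of 13 Dnah and 1 of 7 Rsph genes were lower, with medians of −2.15, −3.03, −0.64, −0.31 and −0.88.

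Tektins 2, 3 and 4 fell. The log2 fold change of Tekt4 was −3.27 (SE 0.42, edgeR adjusted p 0.0029), that of Tekt2 −2.78 (SE 0.38, edgeR adjusted p 0.00335) and that of Tekt3 −2.12 (SE 0.38, edgeR adjusted p 0.00835). Tekt1, with its early onset, was just outside the call at −1.25 (SE 0.23, edgeR adjusted p 0.0102). In the somatic classes of testis replicates 1 and 2, Tekt2 had 73.6 to 172 and 28.8 to 80.4 CPM, and Tekt4 had 109 to 283 and 36.5 to 118 CPM, beside pachytene levels of 216 and 103 CPM and of 325 and 147 CPM.

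Among the Odf genes Odf1, Odf3 and Odf3l1 fell, with an edgeR adjusted p of 0.00242, 0.00188 and 0.0024. Odf3 had 3 UMIs in TO and 2555 in testis pachytene cells, a testis level 108 times as high (exact 95% interval of counting error 37.1 to 526). Odf3l1 had 3 UMIs against 1127, a ratio of 47.8 (16.3 to 232). Odf1 had 1.89 and 1.76 CPM in the TOs against 55.1 and 26.8 CPM in the testes. Odf2, with 480 and 526 against 1159 and 1008 CPM, was not called (−1.35, SE 0.27, edgeR adjusted p 0.0125). In the somatic classes of the testes Odf1 had 52.5 to 104 and 19.8 to 57.7 CPM, a range that takes in its pachytene levels.

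The remaining 6 called genes belong to the doublet lumen, the spokes, the inner arm and the axoneme at large. Cfap53 had a log2 fold change of −1.93 (SE 0.23, edgeR adjusted p 0.00233). Cfap45 fell by 1.70 on the log2 scale (SE 0.26, edgeR adjusted p 0.00473) and the basal body and doublet protein Cfap126 by 2.20 (SE 0.33, edgeR adjusted p 0.00473). Cfap157, needed for the sperm axoneme, fell by 3.09 from a low level of 36.9 and 21.4 CPM in the testes (SE 0.48, edgeR adjusted p 0.00511). Rsph6a fell by 1.93, with 23.7 and 29.9 against 83.8 and 89.8 CPM (SE 0.27, edgeR adjusted p 0.00366), and Dnah10 by 1.96, with 10.4 and 7.61 against 28.6 and 29.4 CPM (SE 0.36, edgeR adjusted p 0.00945).

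The genes with the highest pachytene levels did not pass the test. Rsph1 had a log2 fold change of −0.12 (SE 0.38, edgeR adjusted p 0.837) and Dnah8 one of −0.31 (SE 0.27, edgeR adjusted p 0.42). Dnah7a was at 0.63 (edgeR adjusted p 0.0792). A p that misses the threshold does not show that these levels were alike.

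The pachytene calls depended on how cells were taken. After the somatic level was subtracted, 7 of 58 genes were lower, namely Odf3, Odf3l1, Tekt2, Tekt4, Cfap53, Cfap126 and Rsph6a, while 6.05% of all genes were lower, and the median was −0.38. The share over all genes comes from a table in which nothing was subtracted from genes outside the flagellum lists. With stages set by correlation, 3 of 63 were lower, namely Odf1, Odf3 and Odf3l1, while 1.86% of all genes were lower, and the median was −0.01. Rsph6a then lay at 0.36. Different clusters held most pachytene cells of each group: TO replicate 1 lay mostly in a cluster with a median of 2416 UMIs, TO replicate 2 in one with 24729.5 UMIs, and the testes in one with 1771 UMIs. Within the cluster of 24729.5 UMIs alone (26, 29, 264 and 289 cells), a choice made after the data had been seen, 14 genes were lower, 12 of them those above, beside 6.64% of all genes. Without TO replicate 1, 3 genes were lower, beside 1.98% of all genes, and without testis replicate 2, 20, beside 13.6%. Summed Sertoli markers were 376 and 110 CPM in TO and 52.5 and 21.7 CPM in testis pachytene cells, and their part in the result was not tested.

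Before pachytene, more genes were lower in the TOs. In undifferentiated spermatogonia 27 of 51 genes tested were lower and none higher, beside 9.17% lower and 0.545% higher of all genes. In differentiating spermatogonia it was 36 of 55, beside 12.5% and 1.25%, and in leptotene and zygotene cells 34 of 58, beside 13.7% and 0.776%. The medians were −1.61, −2.99 and −2.09. All 5 tektins and 5 of 6 Odf genes tested were lower at each of these stages, and Rsph1 fell by 3.51, 3.72 and 2.65 on the log2 scale (edgeR adjusted p 3.37e-07, 4.43e-06 and 0.0011). In undifferentiated spermatogonia Odf1 had no UMI in either TO and 81 in the testes, which makes the testis level at least 84-fold higher (against 3 counts over the group). Odf3 had 1 UMI in TO and 326 in testis leptotene and zygotene cells, a ratio of 557 (exact 95% interval of counting error 99.3 to 22060).

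Testis somatic cells held many of these transcripts as well. Tekt1 had 142 and 91.9 CPM in leptotene and zygotene cells of the testes and 79.6 to 188 and 32.5 to 127 CPM in the somatic classes of testis replicates 1 and 2, but 1.94 and 4.09 CPM in those cells of the TOs. With the somatic level subtracted, 5 of 28, 7 of 22 and 5 of 32 genes were lower, with medians of −0.09, −0.35 and −1.30. Over all genes, again with nothing subtracted outside the flagellum lists, 8.79%, 12% and 13.1% were lower, so the share of flagellum genes in leptotene and zygotene cells was near that of all genes. The 5 genes were Rsph1, Odf2, Odf3, Tekt1 and Tekt4 in undifferentiated spermatogonia, and Cfap206, Odf2, Odf3, Tekt1 and Tekt2 in leptotene and zygotene cells. Rsph1, Odf3, Tekt1, Tekt3, Cfap45, Cfap206 and Cfap20, the last outside the rule for named genes and added after its values were seen, were the 7 in differentiating spermatogonia. Cfap20 was not called there without the subtraction, and it had 1867 and 3017 UMIs in TO Leydig cells. With stages set by correlation the counts were 27 of 53, 36 of 56 and 13 of 60, beside 8.88%, 13.2% and 5.97% of all genes. The calls in undifferentiated spermatogonia depended on testis replicate 1. Without it, calls were lost among the flagellum genes and most were lost over all genes. The median over the flagellum genes was then −0.77, from a fit with 1 testis library.

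At diplotene no gene was called among 63 tested, beside 0.612% lower and 0.992% higher of all genes. On simulated data the test recovered 0% of the changed genes at diplotene and in round spermatids. A lack of calls at these stages therefore does not show that levels were alike. By edgeR 5 of the 63 had an unadjusted p below 0.05, and by DESeq2 4 had, with none called. After the subtraction none of 63 was called, beside 0.613% lower of all genes. The TOs had 25 and 24 cells here. TO replicate 1 differed from the other 3 libraries, with 61002 UMIs in all, Sertoli markers at 885 CPM (42.5, 18.4 and 18.9 CPM in the others) and Leydig markers at 803 CPM. Without TO replicate 2, 12 genes were called, beside 3.8% lower and 2.09% higher of all genes, the remaining TO library being assumed to vary like the testes.

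In round spermatids 2 of 65 genes were lower and 1 was higher in the TOs, beside 4.83% lower and 1.04% higher of all genes. The median was −0.17, or −0.03 with 3 genes at 0 in the TOs set to their bound, and −0.38 over all genes. Tekt5 had 2 UMIs in the TOs and 2494 in the testes, a ratio of 12.7 (exact 95% interval of counting error 3.52 to 105), and it passed the test (edgeR adjusted p 0.000401). Odf3 fell by 3.04 on the log2 scale (SE 0.88, edgeR adjusted p 0.0097), from 819 and 732 CPM in the testes to 126 and 141 CPM. Cfap47, a central apparatus protein, rose by 2.08 (SE 0.58, edgeR adjusted p 0.00648), with 421 and 100 against 25.3 and 39.6 CPM. Odf3l1 was not called (−2.34, SE 0.74, edgeR adjusted p 0.0209). The elongating markers summed to 316 and 361 CPM in TO round spermatids (4 and 5 of 7 with UMIs) and 8607 and 21439 CPM in those of the testes, and the round spermatid markers to 1894 and 2482 against 4192 and 4434 CPM. Their part in the result was not tested. TO replicate 1 had macrophage markers at 505 CPM and Sertoli markers at 968 CPM. After the somatic subtraction Tekt5 was lower and Cfap47 and Cfap20 were higher among 64 genes, beside 4.8% lower and 1.03% higher of all genes, and the median was 0.06. Odf3 was then not called (−2.93, edgeR adjusted p 0.0118). Cfap20 was not called without the subtraction (edgeR adjusted p 0.211). With any 1 of the 4 libraries left out, fewer genes were called, among the flagellum genes and over all genes. The median was then −0.18 and −0.20 without TO replicates 1 and 2, and 0.13 and 0.23 without testis replicates 1 and 2.

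**Figure D4:**
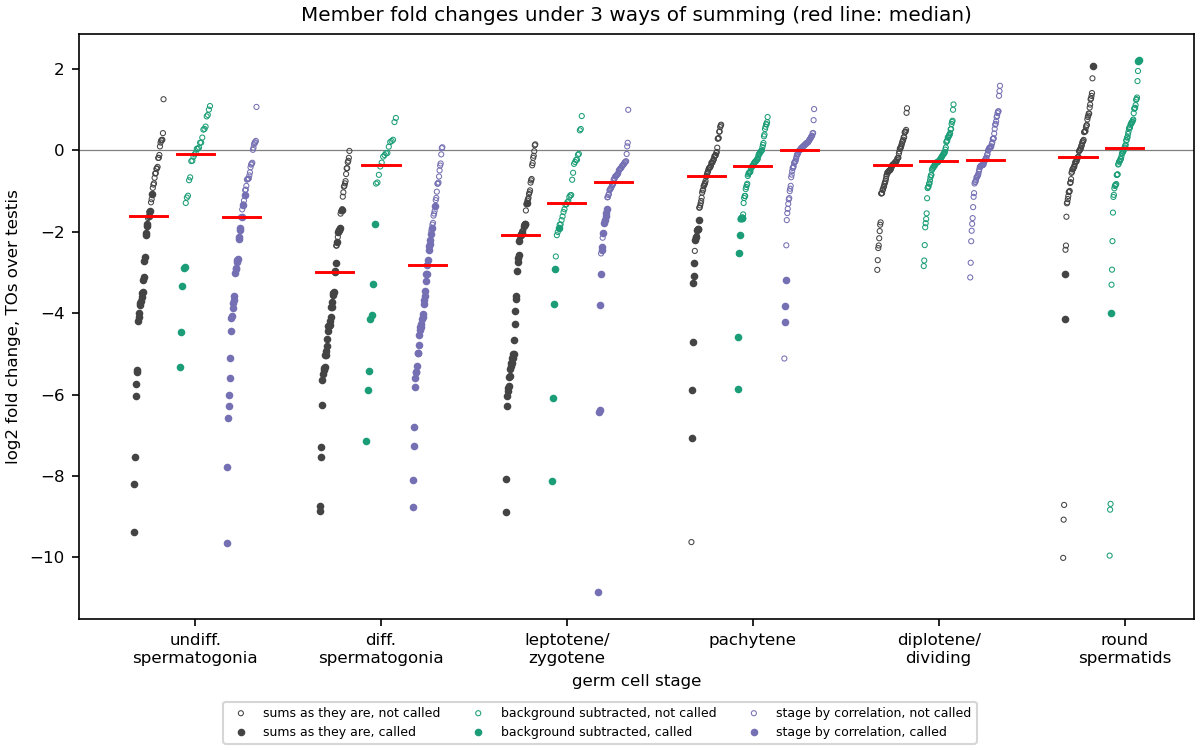
Log2 fold change (TO against testis) of each gene tested, by germ stage, for sums as they are, with the somatic level subtracted, and with stages set by correlation. Filled points passed the test and red lines are medians, which at pachytene are −0.64, −0.38 and −0.01.

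Other genes of the flagellum were taken from lists by role. Over all genes 6.28% were lower at pachytene, 13.7% in leptotene and zygotene cells, 9.17% in undifferentiated and 12.5% in differentiating spermatogonia. List counts of 1 in 14 or 1 in 8 at pachytene are near that share. Of the fibrous sheath, the outer casing of the tail's principal piece, 4 of 7 genes tested were lower at pachytene (Akap3, Akap4, Gapdhs and Ropn1), and Akap4, its most abundant protein, had 0 and 1.17 CPM in the TOs against 81.1 and 43.6 CPM in the testes. Of the other dynein chains, 2 of 3 were lower, Dnali1 (97.5 and 98.3 against 233 and 195 CPM) and Dynlrb2 (112 and 125 against 264 and 255 CPM). In the nexin–dynein regulatory complex and ruler it was 2 of 9 (Drc1 and Tcte1), in dynein assembly and docking 1 of 14 (Dnaaf1), and among other doublet lumen genes 1 of 8 (1700007K13Rik). None of 6 central apparatus and none of 12 intraflagellar transport genes was called. Among 8 regulators, Foxj1, a factor of motile cilium genes, was lower, with 0 and 0.585 CPM in the TOs against 18.5 and 11.5 CPM. No gene of any list was higher at pachytene. In leptotene and zygotene cells 7 of 7 fibrous sheath, 8 of 8 doublet lumen, 7 of 9 regulatory complex, 6 of 13 assembly, 3 of 6 central apparatus, 2 of 3 dynein chain, 4 of 8 regulator and 3 of 12 transport genes were lower. In undifferentiated spermatogonia the same lists gave 6 of 7, 6 of 8, 6 of 9, 5 of 11, 5 of 5, 2 of 3, 3 of 8 and 0 of 12. In differentiating spermatogonia they gave 7 of 7, 6 of 7, 7 of 8, 7 of 13, 5 of 5, 2 of 3, 3 of 8 and 2 of 12. At diplotene and in round spermatids, where the test recovered 0% of changed genes on simulated data, no listed gene was called. At pachytene Gapdhs and Ropn1 were the genes of these lists still lower with the somatic level subtracted. Over all genes 6.05% were then lower at pachytene, 13.1% in leptotene and zygotene cells, 8.79% in undifferentiated and 12% in differentiating spermatogonia. In leptotene and zygotene cells the lists, in the order above, then gave 4 of 6, 2 of 5, 0 of 4, 1 of 8, 1 of 5, 1 of 2, 0 of 7 and 0 of 8. In undifferentiated spermatogonia they gave 1 of 3, 2 of 7, 2 of 5, 0 of 7, 0 of 2, 0 of 1, 1 of 6 and 0 of 10, and in differentiating spermatogonia 3 of 5, 1 of 6, 0 of 2, 1 of 5, 1 of 2, 1 of 2, 0 of 5 and 0 of 8, with 1 doublet lumen gene higher in the latter.

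Over all germ cells, the 67 genes took 0.323% and 0.545% of UMIs in the TOs and 1.33% and 1.29% in the testes. The means were 0.434% ± 0.157 and 1.31% ± 0.0302 (SD, n = 2), a ratio of 0.332. Both TOs lay below both testes, and a two-sided exact permutation test gave p = 0.333, the smallest that 2 against 2 libraries allow. TO germ cells were mostly spermatogonia and leptotene and zygotene cells, and testis germ cells mostly later stages, so the share follows the stage make-up as well as the level within stages, and these cannot be told apart in it.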

How the data were processed

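Cells of 2 TO and 2 testis libraries had been profiled with 10x Chromium 3′ v3.1 chemistry. The authors counted reads with Cell Ranger 7.1.0 on mm10 (GRCm38), per the labels, and they deposited unnormalized UMI counts for each gene in each barcode. Gene positions came from GENCODE vM21. The genes and lists were chosen with earlier results of these data known.

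Barcodes with at least 1000 genes and at most 10% mitochondrial UMIs were kept, with no upper limit, after the highest Scrublet scores (scanpy 1.11.5; 0.8% per 1000 barcodes, 9.46 to 11.7% of a library) were removed. From 2000 variable genes without the flagellum genes, 30 principal components (20 for germ cells) were joined by an own implementation of Harmony and clustered with Leiden (leidenalg 0.10.2, 20 neighbours, resolution 1). Clusters were named from fixed markers, so stages can differ from those of the study. UMIs were summed per library and stage and tested with edgeR 4.0.16 (R 4.3.3; quasi-likelihood, TMM, filterByExpr), each stage alone, where every library had at least 10 cells. Background was the mean per barcode of somatic cells other than Sertoli cells in the same library, subtracted only from the flagellum genes and the genes of the role lists. Intervals and floors (3 counts) cover counting error only. Strand handling is not given in the sources used here, so reads of genes that overlap on opposite strands cannot be told apart, and not every such neighbour is reported here. The text names all Tekt, Odf and Rsph genes with an onset, the 8 Cfap and 8 Dnah genes with the highest testis level, up to 20 called genes per stage, and genes of the role lists. On simulated data with 200 changed genes, edgeR recovered 86.5, 90.5, 83, 31.5, 0 and 0% from undifferentiated spermatogonia to round spermatids. Alternatives included DESeq2 1.42.0, other filters, clusters and stages, and each library left out.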

Additional observations from a re-analysis of the deposited data

Results flagged for a closer look

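Family sums at 3 pairs of stages stood apart because both TOs lay below both testes at 1 stage and above both at the other. The log2 ratio of TO to testis differed by 0.898 for the Cfap sum between round spermatids and pachytene, by 1.76 for the Dnah sum between pachytene and leptotene and zygotene, and by 3.21 for the Rsph sum between round spermatids and leptotene and zygotene. With the somatic level subtracted, the Rsph sums kept both directions, but the groups overlapped in the Cfap sum at pachytene (4340, 4705, 4370 and 5545 CPM) and in the Dnah sum in leptotene and zygotene cells (183, 123, 179 and 494 CPM). Most TO cells named round spermatids (8 of 12 and 10 of 17) matched diplotene cells best. These differences between stages, and the part of stage mixing in them, were not tested. Each group of a stage held 2 libraries, in which a single library out of place cannot be seen.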

How the results depend on the processing

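The counts of called flagellum genes in undifferentiated spermatogonia, differentiating spermatogonia, leptotene and zygotene, pachytene, diplotene and round spermatid cells were 27, 36, 34, 12, 0 and 3. With the somatic level subtracted, they were 5, 7, 5 and 7 in the first 4 stages. With stages set by correlation, 13 remained to be called at leptotene and zygotene and 3 at pachytene. Thinning to equal depth gave 15 in undifferentiated spermatogonia and 0 in round spermatids, beside 593 of 8885 and 0 of 1140 lower over all genes. At pachytene DESeq2 gave 19, beside 1445 lower of all 13727 genes tested. All genes with a UMI gave 21, beside 2497 of 24403. The upper limits of 5000 genes and 20000 UMIs gave 19, beside 1038 of 12393, and doublets kept 23, beside 1978 of 15308. In the main test 862 of 13727 genes were lower, so calls over all genes rose in these settings too. An adjusted p below 0.05 with no fold gave 23, without a count over all genes here. In round spermatids DESeq2 gave 1, doublets kept 5, no Harmony 1 and flagellum genes kept for clustering 6. Over all genes 274 of 14858, 1416 of 15658, 371 of 15494 and 1528 of 15492 were lower in these settings. An adjusted p below 0.05 gave 6 in round spermatids. At diplotene doublets kept, and flagellum genes kept for clustering, gave 1 each, beside 44 of 11181 and 143 of 10915 lower over all genes. Leaving out 1 library gave 0 to 25 in undifferentiated spermatogonia (0 without testis replicate 1), 3 to 20 at pachytene (3 without TO replicate 1, 20 without testis replicate 2), 0 to 12 at diplotene (12 without TO replicate 2) and 0 to 1 in round spermatids. Where 1 library was left in a group, it was assumed to vary like the other group. With at least 3000 UMIs per cell, a limit added after the data had been seen, the first 4 counts were 27, 35, 33 and 14. Over all genes 1081 of 12066, 1471 of 12392, 1423 of 11390 and 843 of 12047 were then lower. The causes of these shifts were not tested.

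Whether the replicate numbers pair the libraries is not given in the labels and cannot be settled from 2 libraries a group. Correlations of same-numbered deviations lay from −0.188 to 0.213. With a replicate block the counts were 28, 41, 39, 20, 0 and 0, and with the numbers crossed, an alternative chosen after the data had been seen, 26, 40, 39, 13, 0 and 3. Over all genes the block gave 1274, 1779, 1956, 2410, 0 and 122 lower genes. The crossed numbers gave 1161, 1684, 1848, 982, 27 and 557, out of the same genes tested.

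Genes with their onset at pachytene numbered 40 and 37 in the testes, and 23 and 19 with stages set by correlation. Family sums with both TOs above both testes went from 3 to 6 of 30 with the somatic level subtracted. The ratio of TO to testis in the share of germ cell UMIs, 0.332, was 0.124 with the upper limits, 0.0887 over all barcodes and 0.247 to 0.417 with 1 library left out. Fold changes reversed for Cfap45 (0.58) and Rsph9 (0.19) in undifferentiated spermatogonia with the somatic level subtracted, and for Rsph6a at pachytene (0.36) with stages set by correlation. Diplotene without Harmony and round spermatids by correlation could not be fitted, having too few cells. The shallowest TO sums were those of replicate 1 at diplotene and round spermatids, with 61002 and 47531 UMIs.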
